A study of Mus musculus with 2 samples.

Results

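Surface epithelial cells were picked out of the eye cups of newborn mice by their keratin transcripts. A barcode was taken if it held at least 200 genes and at most 15% mitochondrial UMIs (unique molecular identifiers, tags that each mark 1 captured transcript). It also needed a UMI of at least 2 of the 5 genes Krt5, Krt14, Krt15, Epcam and Trp63, at least 5 UMIs of Krt5, Krt14 and Krt15 together, under 1% of UMIs from Col1a1, Col1a2 and Col3a1, and no UMI of Ptprc. This gave 185 cells of 26158 kept barcodes, 112 of 14131 in the control and 73 of 12027 in the mutant. They are called keratin-positive cells or members below.

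The study asked what loss of Myrf, which encodes a membrane-bound transcription factor, does to the developing eye. Eye cups were taken at postnatal day 0, after removal of cornea, lens and optic nerve, and were dissociated with papain, a protease, for 10x Genomics 3′ single-cell sequencing. The control library came from 3 pooled Myrf fl/fl eye cups and the mutant library from 3 pooled Rx>cre Myrf fl/fl eye cups. Both genotypes carry Myrf alleles flanked by sites for the recombinase cre, and only the mutant carries the Rx>cre transgene, which makes cre in the early eye field. That field gives rise to the retina and its pigment epithelium. Surface ectoderm, the source of the epithelia of cornea, conjunctiva and eyelid, is a separate tissue. There was 1 library per genotype, so no test between genotypes was possible. All intervals below are 95% intervals that cover counting error only. Differences from animal to animal and from cell to cell are not part of them.

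Stratified epithelia rest on a basement membrane with a basal layer that divides and feeds the layers above it. Keratins are the filament proteins of these cells and assemble from pairs of a type I and a type II chain. Basal cells are known for KRT5 with KRT14 or KRT15, the corneal epithelium for KRT12, the conjunctiva for KRT4, KRT13 and KRT19, and single-layered epithelia for KRT8, KRT18 and KRT7. TRP63 is the transcription factor that sets up the basal layer, and EPCAM is a cell adhesion protein of many epithelia.

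Krt12 and Krt13 were among the genes that most set the keratin-positive cells apart, and both lie in the type I keratin cluster of chromosome 11. Their RefSeq promoters on GRCm38.p6, from 250 bases before to 50 after the transcript start, are shown 5′ to 3′ on the minus strand as a view of the region upstream of these markers. Capitals mark a match to TATAAA in Krt12 (chr11:99422210-99422509) and to the AP-1 motif TGANTCA in Krt13 (chr11:100121517-100121816).
Krt12: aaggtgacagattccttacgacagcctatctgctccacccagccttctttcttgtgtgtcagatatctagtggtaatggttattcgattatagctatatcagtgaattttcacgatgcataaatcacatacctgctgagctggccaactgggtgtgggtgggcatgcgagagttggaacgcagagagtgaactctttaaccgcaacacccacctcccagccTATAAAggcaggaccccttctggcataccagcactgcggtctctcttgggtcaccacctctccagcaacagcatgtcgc
Krt13: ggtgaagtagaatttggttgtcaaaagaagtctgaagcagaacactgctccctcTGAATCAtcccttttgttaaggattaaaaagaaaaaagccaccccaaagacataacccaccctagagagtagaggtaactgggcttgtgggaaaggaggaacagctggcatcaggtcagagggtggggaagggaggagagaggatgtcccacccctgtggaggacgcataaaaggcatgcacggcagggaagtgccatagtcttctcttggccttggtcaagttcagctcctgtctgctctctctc
Both strands were searched for TATAAA, for TGANTCA and for the AP-2 motif GCCNNNGGC. Of 16 promoters found for 15 of the leading and gate genes, 25% held TATAAA, 12.5% TGANTCA and 6.25% GCCNNNGGC. Both promoters with TGANTCA are of Krt13, 1 of the 15 genes, and the one nearer the 5′ end of the gene is printed. Of all 32851 promoters of the same length, 13.62%, 7.808% and 16.59% did. A match is a string of letters only, and no test of these shares was made.

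Members were chosen by the UMIs of the 5 gate genes, the collagens and Ptprc, so the levels of these genes are given first, as a description. Krt15 was counted in all 112 control and all 73 mutant members, at 14244 and 16939 CPM (a gene's UMIs scaled to a common total of members' UMIs per library). Krt5 was counted in 111 of 112 and 71 of 73 members. Krt14 was counted in 74 and 47 members and Trp63 in 75 and 51. Epcam, at 78.1 and 102 CPM, was found in 41 and 40 members. The 3 keratins of the gate summed to a median of 140.5 UMIs per control member (lowest 5, highest 1371) and 226 per mutant member (lowest 7, highest 1454). In percent of a cell's UMIs the medians were 1.39% and 1.97%. Just outside the limit, 7 control barcodes and no mutant barcode held 4 keratin UMIs, and just inside it 5 and 0 held 5 UMIs. The weak members were mostly in the control, where 15 held under 10 keratin UMIs against 2 in the mutant. Near the collagen limit, 11 control members and 1 mutant member held 0.5 to 1% collagen UMIs, and 7 and 0 barcodes with 1 to 2% were left out.

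**Figure D1:**
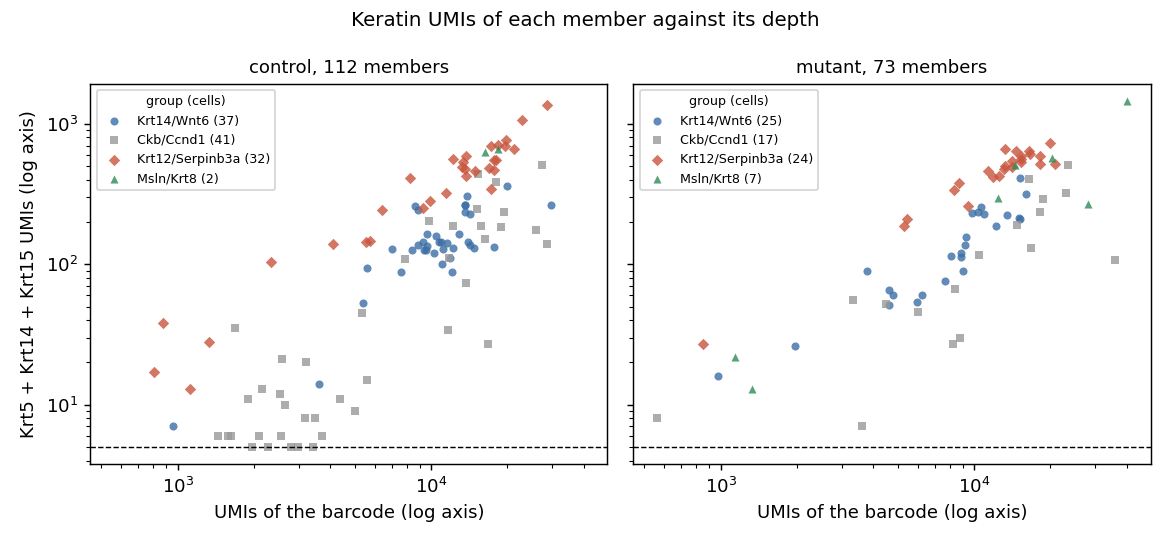
Each point is 1 member, with the UMIs of its barcode on the horizontal axis and its Krt5, Krt14 and Krt15 UMIs on the vertical axis (both log), for the control (112 members) and the mutant (73). Colours and shapes give the 4 groups found by clustering, and the dashed line is the limit of 5 keratin UMIs. Most points near the line are control members.

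Members were deep barcodes, with a median of 10810.5 UMIs and 3043 genes in the control and 11336 UMIs and 3178 genes in the mutant. All other kept barcodes had medians of 4217 and 4979 UMIs. The 2 matrices held 79017429 and 76272867 UMIs. They shared 59 barcodes, none of which was a member. Other kept barcodes held keratin transcripts too. Krt15 had a UMI in 10.2% of those of the control and 9.51% of those of the mutant, and Krt5 in 1.33% and 0.619%. In barcodes reduced to 1000 randomly drawn UMIs each (thinning), Krt15 was found in 97.2% and 98.6% of members against 2.47% and 1.93% of other barcodes.

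The share of keratin-positive cells was 0.793% of kept barcodes in the control (Clopper-Pearson interval 0.653 to 0.953%) and 0.607% in the mutant (0.476 to 0.763%). The log2 ratio of mutant over control was -0.38 (-0.83 to 0.05), an interval that includes 0. Among barcodes with at least 1000 UMIs the shares were 0.835% and 0.600%, a log2 ratio of -0.48 (-0.93 to -0.03), which excludes 0. With collagens under 0.2% in place of 1%, 84 control and 72 mutant members remained, at 0.594% and 0.599% of kept barcodes (log2 ratio 0.01). The direction also turned with the denominator. Among barcodes outside the retina, which means members and barcodes with collagen, endothelial or white blood cell genes, the shares were 3.75% and 5.90%, a log2 ratio of 0.65 (0.21 to 1.09). Collagen-rich barcodes made up 17.2% of the control and 7.78% of the mutant. How much surface tissue stayed on an eye cup after dissection is not known, and was not tested.

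The sexes of the pooled pups moved with genotype. Xist, the RNA that coats the silenced X chromosome of females, was found without any UMI of Ddx3y, Eif2s3y, Kdm5d or Uty in 14 of 112 control members and 54 of 73 mutant members. The reverse held for 57 and 5 members. The other barcodes leaned the same way, so sex and genotype cannot be told apart in any difference below.

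Beyond the gate, the cells were marked by genes of stratified ocular surface epithelium. The 20 leading genes, those with at least 100 UMIs and the highest fold over all other barcodes, were 203-fold to 1104-fold higher in members with 1 CPM added. Since the gate chose these cells by keratins, such folds describe the cells and test nothing. By role they were keratins (Krt12, Krt13, Krt6a, Krt19), desmosome proteins that rivet neighbouring cells together (Dsp, Perp), the water and glycerol channel Aqp3, the epithelial cell cycle inhibitor Sfn, the retinol-binding protein Rbp2, and Gpha2, a glycoprotein hormone subunit that marks corneal limbal cells. Trim29, Anxa8, Calml3, Asprv1, S100a14, Rab25, Mal, Serpinb3a and BC100530 were also among them. Of 8385 genes with at least 20 UMIs, 537 (6.4%) were at least 4-fold over all other barcodes in both libraries.

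Of the genes known from cornea, Krt12, Gpha2, Upk1b and Pax6 were present in most members. Krt12 stood at 5470 CPM in control and 6515 CPM in mutant members against 10.5 and 6.57 CPM in other barcodes. It had a UMI in 96 of 112 and 59 of 73 members, and after thinning in 71.6% and 72.9% of members against 0.772% and 0.897% of other barcodes. Krt12 or Gpha2 was counted in 107 of 112 (95.5%) and 67 of 73 (91.8%). Upk1b, a uroplakin, stood at 404 and 546 CPM against 7.30 and 0.493 CPM. Pax6, the eye master regulator, stood at 558 and 579 CPM, but retina makes it too and other barcodes held 333 and 423 CPM. Aldh3a1, the abundant enzyme of the adult cornea, was low at 20.8 CPM (13.4 to 30.7) in control and 29.8 CPM (19.4 to 43.6) in mutant members, against 17.7 and 13.9 CPM in other barcodes, and Wnt7a had no UMI. The cornea had been removed in the dissection, and where on the eye these cells lay is not recorded.

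Markers of epidermis were mixed. Of the 6 suprabasal epidermis genes measured, 3 were at least 4-fold over other barcodes in both libraries, as were 3 of the 6 cornea genes. Krtdap, a keratinocyte differentiation protein, stood at 464 and 680 CPM against 12.1 and 7.14 CPM in other barcodes, and Dsg1a, a desmosomal cadherin, at 175 and 187 CPM against 0.310 and 0.147 CPM. Krt10 stood at 54.0 and 51.5 CPM, under the 68.3 and 79.7 CPM of other barcodes. Krt1 stood at 30.8 and 24.0 CPM, which was 5.08-fold and 3.43-fold over other barcodes. Lor had 3 and 6 UMIs, Ivl 0 and 1, and Flg none. The Merkel cell genes Atoh1 and Krt20 and the goblet cell genes Muc5ac and Tff1 had no UMI in any member. With no UMI, the interval in mutant members still reaches 4.22 CPM. Of the 10 white blood cell genes 5 were at 0, of which Ptprc was set to 0 by the rule, and of the 8 melanocyte and Schwann lineage genes 4.

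On mm10 with GENCODE annotation, Krt12 (chr11:99415666-99422259), Krt13 (chr11:100117327-100121566), Krt15 (chr11:100131758-100135928) and Krt14 (chr11:100203162-100207548) lie in the type I cluster. Krt5 (chr15:101707070-101712898) and Krt8 (chr15:101996698-102004482) lie in the type II cluster. Keratins as a family made up 3.07% of the control members' UMIs and 3.80% of the mutant members'. Of 52 keratin genes in the files, 32 had a UMI in each library. Type I genes summed to 24121 CPM (23845 to 24400) in control and 29299 CPM (28942 to 29660) in mutant members, and type II genes to 6558 CPM (6414 to 6704) and 8706 CPM (8512 to 8904). In these 3′ counts a transcript is counted once whatever its length. Krt5, Krt14 and Krt15, which chose the members, gave 67.0% (control) and 62.5% (mutant) of the keratin UMIs, so these sums are a description. The other keratins together stood at 10110 and 14239 CPM. Krt15 alone was 46.4% and 44.6% of the family, Krt12 was 17.8% and 17.1%, and Krt5 was 15.4% and 14.5%.

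**Figure D2:**
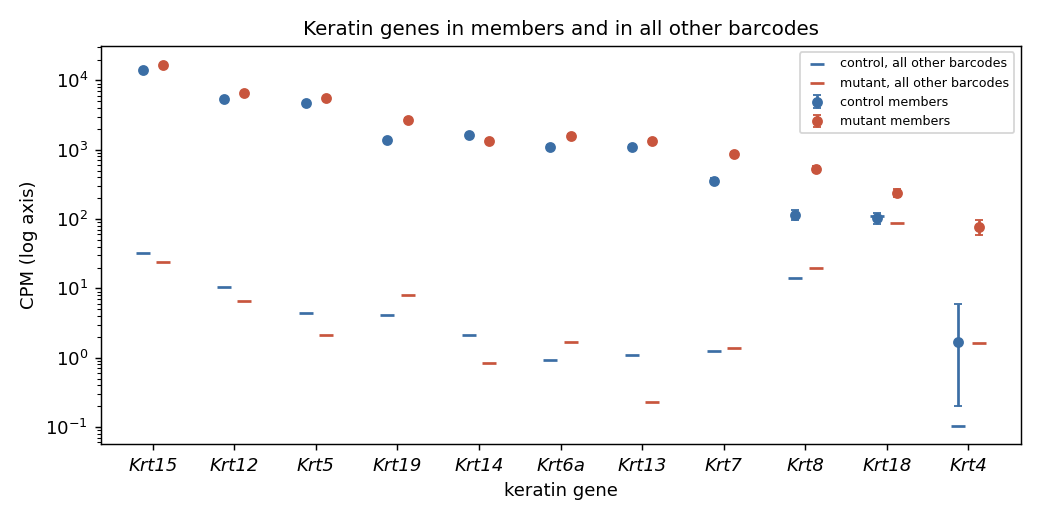
CPM (log axis) of 11 keratin genes in control and mutant members (points, with exact 95% Poisson intervals that cover counting error only) and in all other barcodes of the same library (dashes). Krt4 and Krt8 show the widest gap between genotypes, and Krt18 in control members lies at the level of other barcodes.

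Members varied strongly among themselves. Clustering of both libraries together gave 4 groups. The genes that lead a group were used to form it and are a description. The first, led by Wnt6 and Col7a1 with Krt14 also among its leading genes (62 cells, 37 control and 25 mutant), held most basal markers. Of the 10 basal keratinocyte markers 8 counted for it, and so did 13 of the 15 hemidesmosome and basement membrane genes. A counted marker had a UMI in at least 10% of the group's cells and at least 2 times the other members' level. The share of all genes that met this rule was not taken, so such counts are a description. Krt14 stood at 3276 CPM in it, Col17a1, a collagen of the hemidesmosome, at 916 CPM, the ligand Wnt6 at 627 CPM and Igfbp2 at 2003 CPM. Krt12 was present there as well, at 3437 CPM.

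The second group, led by Serpinb3a (56 cells, 32 and 24), held the most Krt12, Krt13 and Rbp2 of the 4 groups. Krt12 stood at 11514 CPM, Krt15 at 27404 CPM, Krt13 at 3051 CPM, Krt6a at 2534 CPM and Rbp2 at 1598 CPM. Krt14 stood at 93.0 CPM. Of the 12 suprabasal epidermis markers 4 counted for it, against 5 for the fourth group below, and 4 of the 8 cornea markers. Of the 10 desmosome genes 7 counted for this group and none for the basal group, with Dsp at 912 CPM against 313 CPM. Krt14 and Krt12 ran in opposite directions between the first 2 groups, while Krt15 and Krt5 had a UMI in every cell of both. The serpin Serpinb3a and the stefin-like BC100530 belong to families of near-identical genes whose reads can be split by the counting, and Krt6a and Krt6b share sequence too.

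Many cells held genes of both. Krt14 and Krt12 were counted together in 62 control members (55.4%, Clopper-Pearson interval 45.7 to 64.8%) and 39 mutant members (53.4%, 41.4 to 65.2%). Krt12 without Krt14 was counted in 34 and 20 members.

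The third group, led by Ckb (58 cells, 41 and 17), held keratins together with genes of retina, cell cycle and other tissues. Its members held the fewest keratins, a median of 0.652% of UMIs. The median was 0.484% in its control and 1.16% in its mutant cells, which had medians of 4379 and 10436 UMIs. Ratios between genotypes within this group therefore set unlike cells side by side. All 10 retinal progenitor genes counted for it, along with 28 of 30 G2 and mitosis genes and 23 of 28 S phase genes. So did 7 of 12 mesenchyme, 5 of 12 pigment cell, 3 of 8 endothelium and 4 of 13 lens genes, and Mgp, Pmel and Spp1 were among its leading genes. Rax, an eye field transcription factor, had 85.5% of its members' UMIs here, and Top2a, a topoisomerase of dividing cells, had 88.7%. Scrublet marked 10 of its 58 cells as doublets, against 1 of 62 in the first group and 1 of 56 in the second. Whether keratin-positive cells themselves cycled cannot be told apart from a second cell or free RNA in the same droplet.

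The fourth group, led by Msln and Krt8, held 9 cells, 2 of the control and 7 of the mutant. Msln, mesothelin, stood at 1554 CPM, Krt8 at 3233 CPM, Krt18 at 1285 CPM, Krt7 at 4315 CPM and Krt19 at 11791 CPM. Krt14 had no UMI in it. Of the 11 conjunctiva markers 7 counted for this group, Krt4 and Psca among them, and 4 of the 6 simple keratins. In so small a group a single cell with a UMI meets the limit of 10% of cells. Krt4 and Psca each had a UMI in 5 of the 9 cells. Krt12, at 557 CPM, was the lowest of the 4 groups. Its 9 cells held 82.7% of all Krt8, 94.2% of all Krt4 and 91.9% of all Msln UMIs of the members.

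**Figure D3:**
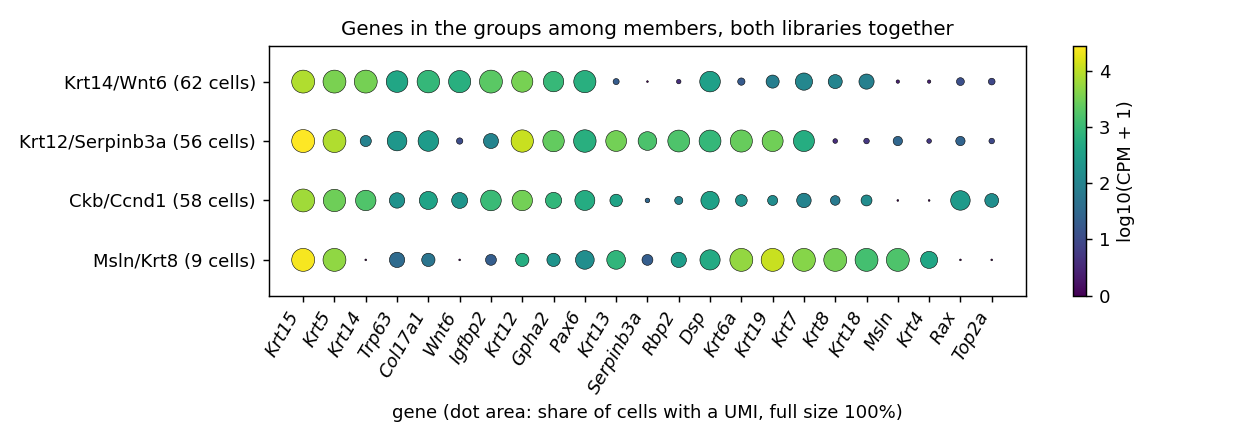
The 4 groups among members (rows) by gene (columns), both libraries together. Colour gives log10(CPM + 1) and dot area the share of the group's cells with a UMI. Krt14 and Wnt6 fade from the top row to the second while Krt12, Krt13 and Serpinb3a grow, Rax and Top2a are highest in the Ckb/Ccnd1 row of 58 cells, and Krt8, Msln and Krt4 in the row of 9 cells.

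Between genotypes, most genes of the keratin-positive cells lay close together. Of 5082 genes with at least 50 UMIs, 52 (1.02%) were at least 2-fold higher and 56 (1.1%) at least 2-fold lower in the mutant members. None of the 20 leading genes passed 2-fold in either direction. Of these 17 lay above 0 and 3 below, with a median log2 ratio of 0.32 against -0.01 over all 8385 genes. The highest were Krt19, at 1384 CPM in control and 2714 CPM in mutant members (log2 0.97, 0.88 to 1.06), and Asprv1, a skin protease, at 730 and 1395 CPM (0.93, 0.81 to 1.06). At least 10 UMIs of Krt19 were held by 22 control members (19.6%, 12.7 to 28.2%) and 29 mutant members (39.7%, 28.5 to 51.9%), and within the Krt12 and Serpinb3a group Krt19 stood at 2928 and 3038 CPM. Krt12 (0.25, 0.20 to 0.30), Krt13 (0.29, 0.18 to 0.41) and Krt6a (0.52, 0.41 to 0.63) were also higher, and Rbp2 (-0.30, -0.47 to -0.14) and Gpha2 (-0.13, -0.24 to -0.02) were lower. Krt13 lay below 0 within the basal group (-0.64, 12 UMIs in all) and within the Krt12 and Serpinb3a group (-0.17). It also lay below 0 in cells with Xist (-0.31) and with Y-linked UMIs (-0.23), as did Krt12 in cells with Xist (-0.48). Among the gate genes, which the rule used, Krt15 was at 0.25 and Krt14 at -0.28. Krt14 was higher in the mutant within the basal group, at 3710 against 3045 CPM (log2 0.28, 0.16 to 0.41), and Krt6a was lower within the Krt12 and Serpinb3a group, at 2200 against 2797 CPM. Of 65 named genes under 2-fold with an interval apart from 0, 51 had the other sign under at least 1 of the alternative settings.

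**Figure D4:**
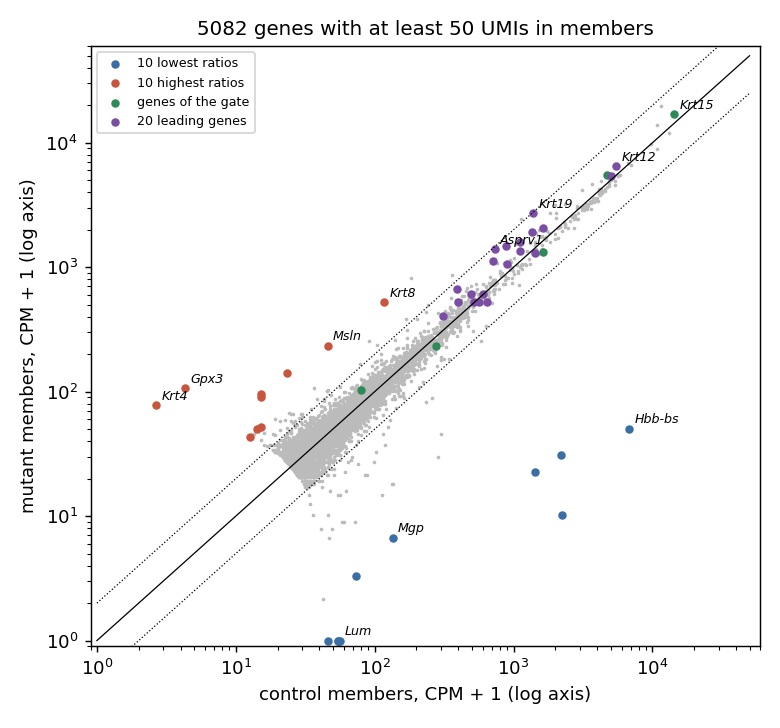
Control (horizontal) against mutant (vertical) CPM + 1 in members, both log axes, for 5082 genes with at least 50 UMIs. The solid line is equality and the dotted lines are 2-fold. Leading genes lie near equality, Krt4, Gpx3, Msln and Krt8 lie above, and globins, Lum and Mgp lie below.

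Among genes with at least 50 UMIs, sex-linked ones left out, the 10 with the highest ratios were Krt4, Gpx3, Psca, Prss27, Cldn23, Msln, Krt8, Upp1, Cox4i2 and Pllp. Krt4 had 2 UMIs in 2 control members and 67 UMIs in 6 mutant members, and 1 mutant cell held 49 of the 67. Likewise 1 mutant cell held 71 of the 123 mutant UMIs of Prss27, and 1 held 42 of the 83 of Psca. Gpx3, a secreted glutathione peroxidase, had 4 and 92 UMIs. Msln had 54 and 204 UMIs, in 10 and 9 members. Krt8 stood at 116 and 523 CPM (log2 2.17, 1.90 to 2.46), with 25 and 19 members holding it. Cox4i2 was spread more widely, with 17 UMIs in 14 control members and 45 in 15 mutant members, at 14.1 and 51.5 CPM against 131 and 202 CPM in other barcodes. Over the 52 genes at least 2-fold higher, a median of 44.3% of the mutant UMIs came from the 7 mutant cells of the Msln and Krt8 group, and 22 genes had more than 50% of them there. Another 10 genes had more than 50% in the 17 mutant cells of the third group. Of the 52 genes, 28 stood higher in members than in other barcodes of both libraries, and 26 were also higher in the other mutant barcodes. Over all 5082 genes these shares were 34.7% and 61.4%. Without the Msln and Krt8 group, which these genes helped to form, Krt8 went from 2.17 to -0.26, Msln from 2.35 to -2.24 and Krt18 from 1.19 to -0.98.

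All 8 measured conjunctiva genes lay above 0, with a median log2 ratio of 1.37, and 5 were at least 2-fold higher, against 2.24% of all genes with at least 20 UMIs. Krt4, Aqp5 and Psca among them reached 20 UMIs through the mutant library alone, so that minimum favoured their direction. The other 5 had a median of 0.97, and 2 were at least 2-fold higher. Aqp5 had 4 and 26 UMIs, and Cldn4, a tight junction claudin, stood at 90.6 and 255 CPM. The 4 simple epithelial keratins measured, Krt7, Krt8, Krt18 and Krt19, were all above 0 with a median of 1.23. Krt7 stood at 359 and 862 CPM (1.26, 1.09 to 1.44). Without the Msln and Krt8 group the medians were 0.41 and -0.13. Genes of both lists led that group, so leaving it out had to lower them. Within the Krt12 and Serpinb3a group the conjunctiva median was -0.059. It was 0.29 in the basal group (3 genes), 1.77 in the third group (4 genes) and 0.81 in the Msln and Krt8 group (7 genes). Of the 15 adherens and tight junction genes 3 were at least 2-fold higher, the claudins Cldn3, Cldn4 and Cldn23, against 2.24% of all genes. Cldn23, at 17 and 79 UMIs, also reached 20 UMIs through the mutant library alone.

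Among genes with at least 50 UMIs, the 10 with the lowest ratios belonged to other tissues. They were the globins Hbb-bt, Hbb-bs, Hba-a1 and Hba-a2, the stromal genes Lum, Mgp and Spp1, and the lens crystallins Cryge, Cryba1 and Crybb3. Of the control members' globin UMIs, 99.4% came from 1 barcode of 29708 UMIs, which held 50.8% globin and 266 keratin UMIs. Without it Hba-a1, Hba-a2 and Hbb-bt lay above 0, at 1.07, 2.37 and 0.54. Cryba1 had 64 UMIs in 27 control members and 0 in the mutant, and stood at 145 CPM in other control and 0.187 CPM in other mutant barcodes. Col1a1 had a UMI in 99 of 112 control and 19 of 73 mutant members, and after thinning in 43.1% and 7.14% of members and 55.6% and 16.3% of other barcodes. Of the 56 genes at least 2-fold lower (1.1%), 48 were lower in the other mutant barcodes too, and 41 stood lower in members than in other barcodes of both libraries. These shares were 38.6% and 54.2% over all 5082 genes. A median of 50.6% of the control UMIs of the 56 genes came from the 41 control cells of the third group, and 28 genes had more than 50% of them there. Of the 9 mesenchyme genes measured 8 lay below 0, with a median of -2.70, but Col1a1, Col1a2 and Col3a1 among them were limited by the rule. Without these 3 genes 5 of 6 lay below 0, with a median of -1.72. The part of free RNA in these ratios was not tested.

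Over all members the medians of the basal and hemidesmosome lists lay close to 0, and those of the desmosome and the adherens and tight junction lists at 0.29 and 0.26. The 10 basal keratinocyte genes had a median of 0.03, with 6 above and 4 below 0, and 4 of them (Krt5, Krt14, Krt15 and Trp63) chose the members. The other 6 had a median of 0.03 as well, with 4 above 0. Igfbp2 was the lowest of the list over all members, at 1098 and 717 CPM (-0.61, -0.75 to -0.48). Within the basal group, the list of 10 had a median of 0.29, with 9 above 0. The 15 hemidesmosome and basement membrane genes had a median of 0.02. Within the basal group 14 of the 15 lay above 0, with a median of 0.30. The median was 0.18 in the Krt12 and Serpinb3a group (7 genes) and -0.19 in the third group (12 genes). Col17a1 stood at 474 and 483 CPM, and Dst, dystonin, at 134 and 138 CPM. Of the 9 desmosome genes 8 lay above 0, with a median of 0.29 and none past 2-fold, and within the basal group 7 of 8 did, with a median of 0.73. The desmosome median was 0.31 in the third group, 0.06 in the Krt12 and Serpinb3a group and -0.05 in the Msln and Krt8 group. Dsp stood at 494 and 607 CPM (0.30, 0.13 to 0.47) and Perp at 1636 and 2064 CPM (0.33, 0.24 to 0.43). The 24 epithelial transcription factors had a median of 0.16, and Ovol2, at 10 and 22 UMIs, was the one at least 2-fold higher, against 2.24% of all genes. Klf5 stood at 265 and 293 CPM. The 6 cornea genes measured had a median of 0.34.

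Among signalling genes the keratin-positive cells held transcripts of WNT ligands. Wnt4 stood at 868 CPM in control and 727 CPM in mutant members, against 3.20 and 2.67 CPM in other barcodes, Wnt6 at 301 and 190 CPM and Wnt10a at 227 and 153 CPM. All 3 were lower in the mutant (Wnt4 -0.26, -0.40 to -0.11, Wnt6 -0.66, -0.94 to -0.39, Wnt10a -0.56, -0.87 to -0.26). Of the 12 WNT genes measured 9 lay below 0, with a median of -0.32, and 2 were at least 2-fold lower against 3.41% of all genes with at least 20 UMIs. They were Wnt5a, at 32 and 10 UMIs (-1.15, -2.41 to -0.16), and Lef1, at 16 and 5 UMIs (-1.09, -3.02 to 0.30), whose interval includes 0. Within the basal group the WNT median was -0.041 and Wnt10a stood at 434 and 431 CPM. Within the Krt12 and Serpinb3a group Wnt10a (0.78) and Wnt4 (0.03) lay above 0, as did Wnt4 in thinned cells (0.18). Of the 10 BMP and TGFb genes 8 lay below 0 with a median of -0.73, and 3 were at least 2-fold lower, against 3.41% of all genes. They were Bmp7, at 19 and 3 UMIs, Smad7, at 33 and 10, and Tgfb1, at 22 and 6. None of these, nor Wnt5a and Lef1, reached 20 UMIs in the mutant library, so that minimum favoured their direction. In members the BMP and TGFb genes stood at a median of 0.565-fold of their level in other barcodes. Of the Id genes, targets of BMP signalling, Id3 stood at 282 and 160 CPM (-0.81, -1.11 to -0.53), but at a log2 ratio of 0.30 within the basal group. Id1 stood at 205 and 233 CPM (0.18, -0.09 to 0.46) and Id2 at 95.6 and 101 CPM (0.07, -0.34 to 0.49), the 2 genes of the list above 0. The basal group alone gave a BMP and TGFb median of 0.09 and the Krt12 and Serpinb3a group alone -0.03. In the third group, which held 36.6% of control and 23.3% of mutant members, all 7 measured lay below 0 with a median of -0.50, and the WNT median was -0.33. Notch genes had a median of 0.19 over 8 genes. Fgfbp1, which carries fibroblast growth factors, stood at 352 and 563 CPM (0.68, 0.49 to 0.87), and at a log2 ratio of -0.12 within the basal group.

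The median of the sterol and lipid synthesis genes lay below 0 in every setting that gave a value, from -0.94 to -0.23. Of 15 measured genes 14 lay below 0, with a median of -0.40, while in all other barcodes the same genes had a median of 0.24. None of the 15 was at least 2-fold lower over all members, and 4 had an interval below 0. Within the Krt12 and Serpinb3a group all 12 measured genes lay below 0, with a median of -0.94 against -0.02 over all 4365 genes of that group. There 5 of the 12 were at least 2-fold lower, against 3.6% of all genes, and 6 of the 12 had an interval below 0. Fdps, a prenyl synthase of the pathway, stood at 388 CPM in control and 173 CPM in mutant cells of that group (-1.16, -1.64 to -0.71), and Scd2, a fatty acid desaturase, at 423 and 227 CPM (-0.89, -1.32 to -0.49). In the basal group 6 of 8 lay below 0, with a median of -0.41, and 1 was at least 2-fold lower, against 2.98% of all 3831 genes of that group. None of the 8 had an interval below 0 there, and Scd2 lay above 0, at 0.25. In the third group 8 of 12 lay below 0, with a median of -0.20 and no interval below 0. The first 2 of these groups are 32 control and 24 mutant cells and 37 and 25 cells, of 1 library each.

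**Figure D5:**
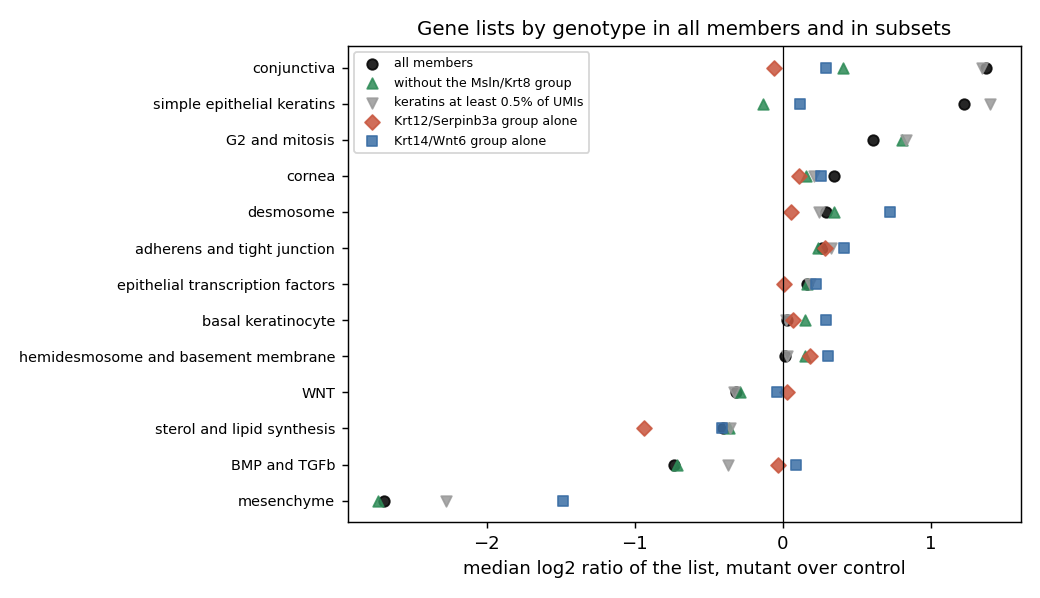
Median log2 ratio of mutant over control (horizontal axis) for 13 gene lists in all members and in 4 subsets of them. The conjunctiva and simple keratin medians lie above 1 in all members and at 0.41 and -0.13 without the Msln/Krt8 group, while sterol and lipid synthesis lies below 0 in each subset shown, from -0.94 to -0.35.

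Cycle genes were rare in the keratin-positive cells. The G2 and mitosis list took 0.0492% of control and 0.0749% of mutant members' UMIs, against 0.330% and 0.357% in other barcodes. Of its 20 measured genes 17 lay above 0, with a median of 0.61, and with each cell weighted equally the median was -0.62. Top2a had 44 UMIs in 20 control members and 53 in 9 mutant members. Glycolysis genes had a median of 0.29, below the 0.37 of other barcodes. Hspa1b, a heat shock gene that responds to dissociation, stood at 170 and 271 CPM, and the dissociation list had a median of -0.08.

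Myrf itself was almost not detected in these cells. It had 2 UMIs in 2 control members and 0 in mutant members, where the interval reaches 4.22 CPM. In all other barcodes it stood at 11.4 and 1.72 CPM. Its partner Tmem98 had 26 and 13 UMIs in members (log2 -0.51, -1.62 to 0.47).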

How the data were processed

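Per the labels, 2 samples of total eye cup cells were sequenced, 1 per genotype. The authors deposited UMI counts as sparse matrices of genes by cell barcodes, not normalized. The submitters' processing notes name Cell Ranger 7.1.0, Seurat 4.1.1 and mm10, while the matrix headers give software 3.1.0. The annotation used for counting is not given in the sources used here. The labels do not say whether the 3 eye cups came from different pups.

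The filter on barcodes was 200 genes or more and mitochondrial UMIs of 15% or less. The study's upper limit of 2000 UMIs was an alternative, since it removes most barcodes. Scrublet in scanpy 1.11.5 marked doublets at the expected rate (11.3% and 9.62%), because its own threshold marked 0% of the control and 5.46% of the mutant. Marked cells (8 and 4 members) stayed in, and leaving them out was an alternative. UMIs of members were summed per library and divided by their total (1203339 and 873945 UMIs) to give CPM. Log2 ratios have 1 CPM added to each side, which understates the change of low genes. Intervals of ratios come from the exact conditional Poisson method, applied without the added CPM. A list's median covers its genes with at least 20 UMIs. Shares were also taken in 109 and 70 members thinned to 1000 UMIs, with 3 and 3 too shallow, and in every 4th other barcode. Groups came from Leiden clustering (2000 variable genes, 20 principal components, 15 neighbours, resolution 0.6), without sex-linked, mitochondrial, ribosomal, haemoglobin and dissociation response genes. Gene positions and identifiers follow GENCODE M21. Promoters are RefSeq.

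Named genes were those of the gate, Myrf, Tmem98 and Xist, and the 20 with the highest fold over other barcodes. The 10 highest and 10 lowest ratios with an interval apart from 0 were named too, among genes with at least 50 UMIs. Sex-linked, mitochondrial and gate genes were left out of these ratios. Each list added up to 6 genes with the most UMIs plus any past 2-fold. One gene that this rule names is not reported here. Genes that lead groups or stand for the sterol list within a group, and epithelial markers near 0, were added after their values were seen. Members and lists were chosen with earlier results of these data known. The statistics were tested on simulated counts.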

Additional observations from a re-analysis of the deposited data

Results flagged for a closer look

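Barcodes with at least 5 keratin UMIs and 2 markers that were left out by the collagen limit numbered 18 (control) and 2 (mutant), a signal outside the comparisons above. The 18 control barcodes held a median of 14 keratin UMIs (6 to 615), 2294 UMIs in all and 2.08% collagen, and 7 of them held Krt12. The 2 mutant barcodes held 182 and 466 keratin UMIs, a median of 3.39% collagen and no Krt12, and both were marked as doublets, as were 4 of the 18.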

How the results depend on the processing

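With 1 library per genotype there was no replicate to leave out, and no alternative measures the spread between animals. No paired analysis was possible because each genotype has 1 library. Single-gene ratios stayed within their counting interval in 3213 cases and left it in 681. Those called reversed below, 45 in 19 of 207 genes, had at least a 2-fold ratio with an interval apart from 0. Among 65 genes under 2-fold with such an interval, 51 turned sign at least once (111 ratios, counted among the 681), such as Krt6a (-0.35) and Krt14 (1.96) in the Krt12 and Serpinb3a group, Krt14 (0.28) in the Krt14 and Wnt6 group and Igfbp2 (0.58) with at most 2000 UMIs. Alternatives on keratins of at least 0.5%, the globin barcode and groups were chosen after seeing the data.

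The log2 ratio of shares, -0.38, was 0.86 with at most 2000 UMIs (11 and 6 cells), -1.08 in members with Xist but not Y-linked UMIs (14 and 54 cells), -1.38 in members with the reverse (57 and 5 cells) and 0.65 outside the retina. In that order of the first 3 settings, genes at least 2-fold higher (52 of 5082) numbered 3, 113 and 127, and lower (56) 4, 23 and 270. These were of 82, 2262 and 2255 genes with at least 50 UMIs. Both counts were 3 and 11 of 461 genes in thinned cells and 99 and 135 of 5082 with cells weighted equally. They were 188 and 286 of 8385 at 20 UMIs and 20 and 24 of 2824 at 100 UMIs. In the Krt12 and Serpinb3a group they were 12 and 29 of 1939, and in the Krt14 and Wnt6 group 16 and 15 of 1559. Without the Msln and Krt8 group 28 of 4862 were higher. The number of genes differs by setting, so the counts alone do not compare.

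The basal median, 0.03, was 0.58 with at most 2000 UMIs, 0.38 thinned, -1.35 in cells with Y-linked UMIs and 0.29 in the Krt14 and Wnt6 group. The conjunctiva median, 1.37, was 2.60 and -0.52 in cells with Xist and with Y-linked UMIs, 0.41 without the Msln and Krt8 group, -0.059 in the Krt12 and Serpinb3a group and 0.29 in the Krt14 and Wnt6 group. The cornea median, 0.34, was 0.079 thinned, -0.040 and -0.13 by Xist and Y, 0.16 without the Msln and Krt8 group and 0.11 in the Krt12 and Serpinb3a group. The simple keratin median, 1.23, was 1.71 at 5% mitochondrial UMIs, 1.56 thinned, 1.52 with cells weighted equally, 2.54 and -2.16 by Xist and Y, -0.13 without the Msln and Krt8 group and 0.11 in the Krt14 and Wnt6 group. The causes were not tested.

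Of genes past 2-fold, those reversed in the Krt12 and Serpinb3a group were Hba-a1 (1.40), Hba-a2 (3.08), Hbb-bs (0.34), Krt7 (-0.36), Msln (-3.54), Pllp (-0.22), Upk3b (-4.71) and Upp1 (-0.75), and in the Krt14 and Wnt6 group Krt18 (-0.054) and Krt8 (-0.23). With at most 2000 UMIs Hba-a1 (2.89), Hba-a2 (3.15) and Hbb-bs (2.16) reversed, and in cells with Xist Hba-a2 (1.34), Hbb-bs (0.12) and Stmn2 (0.16). In cells with Y-linked UMIs, 5 of them mutant, Cldn23 (-4.34), Cldn3 (-0.79), Krt18 (-3.05), Krt7 (-1.27), Krt8 (-3.81), Msln (-5.94), Pllp (-4.13), Prss27 (-4.52), Psca (-4.52), Stmn2 (0.26), Upk3b (-5.30) and Upp1 (-3.88) did. Keratins of at least 0.5% reversed Dct (0.36) and Stmn2 (0.56), equal weights Tpx2 (-0.61), 5% mitochondrial UMIs Pmel (0.41), and other cell types under 1% Dct (0.11), Hba-a1 (0.73), Hba-a2 (2.94) and Hbb-bt (0.49). Without the Msln and Krt8 group Krt18 (-0.98), Krt7 (-0.00), Krt8 (-0.26), Msln (-2.24), Upk3b (-3.26) and Upp1 (-0.45) reversed, and without the globin barcode Hba-a1 (1.07), Hba-a2 (2.37) and Hbb-bt (0.54).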
